A study of Homo sapiens with 10 samples.

Results

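To look at inflammatory signals among the transcripts of hepatocellular carcinoma (HCC) cells with altered PSPC1, 10 genes were read in RNA-Seq data of 10 libraries: CXCL1, CXCL2, CXCL3, CXCL8, CCL2, CCL20, IL1A, IL1B, IL6 and LIF. They were chosen by name as known target genes of NF-kB, matched to the Ensembl identifiers of the tables, and all 10 were found among the 58302 genes listed. The choice was made with earlier results of these data known, so their counts beside all genes are a description only. PSPC1 is an RNA-binding protein of paraspeckles, and PTK6 is a nonreceptor tyrosine kinase. In SK-hep1, RNA was taken from mock control cells and from cells overexpressing PSPC1, PSPC1/PTK6, PSPC1-Y523F or PSPC1-Y523F/PTK6, where Y523F puts phenylalanine in the place of tyrosine. In Mahlavu it was taken from mock control cells and from cells labelled as overexpressing the C-terminal part of PSPC1 (PSPC1-CT131) or a form with a mutated nuclear localization signal (Mut-NLS-CT131). In Huh-7 it was taken from untreated cells and from cells given 10 ng/ml hepatocyte growth factor (HGF) for 48 h. All 3 are established human cell lines labelled as HCC. The study's methods name plasmid transfection, with stable clones kept for animal work, and do not say whether the sequenced cells were clones. There was 1 library per condition, so no difference could be checked against replicates, and p-values are not given.

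Cells answer danger and inflammatory signals through NF-kB, a family of transcription factors held in the cytoplasm by inhibitor proteins until kinases release them. In the nucleus NF-kB binds short sites near genes of chemokines, which attract leukocytes, and of cytokines such as IL6 and interleukin-1. In the liver these messengers drive the acute-phase response, and many tumour cells make them without an outside stimulus.

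The bases just before the transcription start are shown for the 8 of the 10 genes that had windows in RefSeq on GRCh38.p14, with and without the letters of an NF-kB site. They run 5′ to 3′ over the 150 bases before the start. Capitals mark GGNNTTTCC, the letters searched for NF-kB, or TGANTCA, those searched for AP-1, on either strand.
CXCL1, chr4:73869243-73869392, + strand: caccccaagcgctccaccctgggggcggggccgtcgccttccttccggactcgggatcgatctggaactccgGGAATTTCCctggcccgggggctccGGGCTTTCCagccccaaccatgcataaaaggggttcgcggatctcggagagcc
CXCL2, chr4:74099196-74099345, - strand: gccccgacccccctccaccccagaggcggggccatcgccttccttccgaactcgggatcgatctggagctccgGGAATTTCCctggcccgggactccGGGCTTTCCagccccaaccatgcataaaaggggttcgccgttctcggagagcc
CXCL3, chr4:74038690-74038839, - strand: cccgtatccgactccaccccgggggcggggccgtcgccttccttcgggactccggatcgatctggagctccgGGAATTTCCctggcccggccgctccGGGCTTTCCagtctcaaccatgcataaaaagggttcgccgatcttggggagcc
CXCL8, chr4:73740419-73740568, + strand: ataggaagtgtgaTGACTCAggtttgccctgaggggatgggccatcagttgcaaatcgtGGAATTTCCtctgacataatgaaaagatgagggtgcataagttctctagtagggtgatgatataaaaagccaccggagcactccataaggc
CCL20, chr2:227813692-227813841, + strand: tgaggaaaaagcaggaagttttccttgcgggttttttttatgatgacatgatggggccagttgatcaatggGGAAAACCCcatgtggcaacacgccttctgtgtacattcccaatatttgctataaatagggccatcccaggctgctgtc
IL6, chr7:22727050-22727199, + strand: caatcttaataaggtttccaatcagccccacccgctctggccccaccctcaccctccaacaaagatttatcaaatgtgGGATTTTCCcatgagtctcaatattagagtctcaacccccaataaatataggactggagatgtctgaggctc
IL1A, second of its starts, chr2:112784401-112784550, - strand: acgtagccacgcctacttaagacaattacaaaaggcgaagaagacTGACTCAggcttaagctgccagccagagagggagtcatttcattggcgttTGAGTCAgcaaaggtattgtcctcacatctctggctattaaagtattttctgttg
IL1B, chr2:112836780-112836929, - strand: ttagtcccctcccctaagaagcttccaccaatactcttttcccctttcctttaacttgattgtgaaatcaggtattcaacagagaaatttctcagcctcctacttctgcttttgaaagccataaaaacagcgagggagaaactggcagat

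CXCL1, CXCL2 and CXCL3 each held the NF-kB letters at 2 places, the nearer one 53 to 45 bases before the start in all 3 genes. CXCL8 held them at 1 place, with the AP-1 letters farther out at 137 to 131 bases before the start. IL6 held the NF-kB letters 72 to 64 bases before its start, and CCL20 held them on the opposite strand. The 2 windows of IL1A and the window of IL1B held no NF-kB letters, while both windows of IL1A held AP-1 letters. Of 35116 RefSeq windows, 5.48% held the NF-kB letters and 6.57% the AP-1 letters within 250 bases before the start. A match of letters is a description of the sequence and not a measured binding site. CCL2 and LIF are not shown.

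Depth was similar within each cell line, with 15245935 to 24278662 reads on genes per library. PSPC1 had no read in SK-hep1 mock and 7.01 FPKM with PSPC1, 26.4 FPKM with PSPC1/PTK6, 2.28 FPKM with PSPC1-Y523F and 70.9 FPKM with PSPC1-Y523F/PTK6. FPKM are reads scaled for gene length and library size. PTK6 had 16.7 FPKM in PSPC1/PTK6 and 10.5 FPKM in PSPC1-Y523F/PTK6, against 4.09 to 5.69 FPKM in the other SK-hep1 libraries. In Mahlavu PSPC1 did not rise under the labels of overexpression. The gene as a whole had 47.3 FPKM in mock, 30.8 FPKM under the label PSPC1-CT131 and 22.5 FPKM under Mut-NLS-CT131. PSPC1-CT131 is only the C-terminal part, and its own reads were not counted apart, so these levels do not check the labels. On Western blots the paper reports less PSPC1 protein with PSPC1-CT131 but not with Mut-NLS-CT131. Of 7 hepatocyte markers all were at or above 1 FPKM in both Huh-7 libraries, but only SERPINA1 was in all SK-hep1 and all Mahlavu libraries, where ALB and TTR had no read. Of 6 leukocyte markers, CD14 was the only one at or above 1 FPKM in every SK-hep1 and Mahlavu library. The summed level of this list was 6.07 to 18.3 FPKM in SK-hep1 and 7.23 to 10.4 FPKM in Mahlavu, with CD3E and MS4A1 at 0. In Huh-7 its sum was 432 to 446 FPKM, nearly all from LYZ, with CD68 and MS4A1 at 0. Of 5 endothelial markers, none reached 1 FPKM in all SK-hep1 or all Mahlavu libraries, with sums of 0.451 to 0.958 FPKM and 0.779 to 0.965 FPKM, and KDR was at 0 in SK-hep1. Huh-7 had 6.75 to 6.76 FPKM for that list.

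The neutrophil chemokines were highest with wild-type PSPC1, with or without PTK6, and lower with PSPC1-Y523F. CXCL1, CXCL2, CXCL3 and CXCL8 bind the receptors CXCR1 or CXCR2 and draw neutrophils into tissue. All 4 genes lie in 1 cluster on chromosome 4 between positions 73740506 and 74099293 of GRCh38. CXCL1 (ENSG00000163739) had 34.0 FPKM in mock, 78.0 with PSPC1, 75.7 with PSPC1/PTK6, 47.1 with PSPC1-Y523F and 40.0 with PSPC1-Y523F/PTK6. Thus it was high in both wild-type PSPC1 libraries and lowest in mock. Its log2 fold change against mock, taken on quantile-normalized FPKM + 1, was 1.16 with PSPC1 and 1.04 with PSPC1/PTK6, but 0.45 with PSPC1-Y523F and 0.29 with PSPC1-Y523F/PTK6. As a ratio of deposited FPKM the rise with PSPC1 was 2.29-fold, with an exact 95% interval of 2.08 to 2.53 from the 1319 and 617 reads, which covers counting error only, like every interval given here.

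CXCL2 (ENSG00000081041) had 4.51 FPKM in mock, 14.4 with PSPC1, 19.8 with PSPC1/PTK6, 4.75 with PSPC1-Y523F and 6.85 with PSPC1-Y523F/PTK6. The wild-type libraries stood well above the other 3, and the mutant without PTK6 was at the level of mock, at 1.05-fold (0.761 to 1.46). The log2 fold change against mock was 1.46 with PSPC1 and 1.63 with PSPC1/PTK6. CXCL3 (ENSG00000163734) was the lowest of the 4, with 1.12 FPKM in mock, 2.78 with PSPC1, 3.97 with PSPC1/PTK6, 1.15 with PSPC1-Y523F and 1.52 with PSPC1-Y523F/PTK6. Its order over the libraries was that of CXCL2, but its log2 fold changes of 0.84 and 0.87 with wild-type PSPC1 stayed under 2-fold on this scale, where the added 1 FPKM weighs on low values. Without that addition its ratio to mock was 2.49-fold with PSPC1 (1.53 to 4.15) and 3.56-fold with PSPC1/PTK6 (2.27 to 5.76). CXCL2 and CXCL3 are close copies, sharing 79 stretches of 100 bases, 5.00% of those of CXCL2 and 3.27% of those of CXCL3. The reads described in the paper are paired and longer than these stretches. How many of them could not be told apart between CXCL2 and CXCL3, and how such reads were counted, was not measured.

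CXCL8, the gene of interleukin-8 (ENSG00000169429), had 4.70 FPKM in mock, 9.63 with PSPC1, 21.3 with PSPC1/PTK6, 3.27 with PSPC1-Y523F and 5.76 with PSPC1-Y523F/PTK6. Unlike CXCL1, it was highest by far in PSPC1/PTK6, where 509 reads stood against 102 in mock. The log2 fold change against mock was 1.69 with PSPC1/PTK6 and 0.92 with PSPC1. With the mutant its log2 values were -0.29 without PTK6 and 0.36 with it, and the interval of the latter ratio, 0.943 to 1.60, held 1.

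The interleukin-1 genes showed another order, with PSPC1/PTK6 at the top and both PTK6-free transfectants below mock. Interleukin-1 is itself an inducer of NF-kB, and IL1A, its cell-associated form, works as an alarm signal of damaged cells. IL1A (ENSG00000115008, chromosome 2, 112773915 to 112784590) had 2.82 FPKM in mock, 1.40 with PSPC1, 18.6 with PSPC1/PTK6, 0.268 with PSPC1-Y523F and 2.52 with PSPC1-Y523F/PTK6. The PSPC1/PTK6 library alone stood above mock, at a log2 fold change of 2.05, and PSPC1-Y523F was lower by a log2 value of -1.71 on 12 reads against 130. IL1B (ENSG00000125538, chromosome 2, 112829751 to 112836903), the secreted form, had 9.25 FPKM in mock, 2.91 with PSPC1, 20.4 with PSPC1/PTK6, 1.34 with PSPC1-Y523F and 4.62 with PSPC1-Y523F/PTK6. It was past 2-fold lower than mock with PSPC1, at a log2 value of -1.30, and with PSPC1-Y523F, at -2.02. Its log2 value with PSPC1/PTK6 was 0.82, and the ratio of deposited FPKM was 2.21-fold (1.85 to 2.64).

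IL6 had the largest rise with PSPC1/PTK6 among the 10 genes. IL6 is the main inducer of acute-phase proteins in hepatocytes and signals through gp130 and STAT3. IL6 (ENSG00000136244, chromosome 7, 22725884 to 22732002) had 12.4 FPKM in mock, 18.1 with PSPC1, 98.8 with PSPC1/PTK6, 8.39 with PSPC1-Y523F and 27.7 with PSPC1-Y523F/PTK6. Both libraries with PTK6 were above all 3 without it. Against mock, the log2 fold change was 2.80 with PSPC1/PTK6, a ratio of 7.96-fold (6.95 to 9.16), and 1.16 with PSPC1-Y523F/PTK6, a ratio of 2.23-fold (1.91 to 2.61). LIF, a cytokine of the same family (ENSG00000128342, chromosome 22, 30240447 to 30246851), had 23.4 FPKM in mock, 30.7 with PSPC1, 39.1 with PSPC1/PTK6, 49.0 with PSPC1-Y523F and 30.8 with PSPC1-Y523F/PTK6. It was the only gene of the 10 with its highest SK-hep1 level in PSPC1-Y523F, at a log2 fold change of 1.02.

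CCL2 ran against the interleukins, being high in both transfectants without PTK6, lower in both with PTK6 and lowest in mock. CCL2, also called MCP-1, attracts monocytes through CCR2. CCL2 (ENSG00000108691, chromosome 17, 34255218 to 34257203) had 0.320 FPKM in mock, 10.8 with PSPC1, 1.64 with PSPC1/PTK6, 5.91 with PSPC1-Y523F and 0.904 with PSPC1-Y523F/PTK6. These values rest on 6, 189, 34, 108 and 19 reads. The log2 fold change against mock was 3.20 with PSPC1 and 2.52 with PSPC1-Y523F. The ratios of 33.8-fold (15.2 to 93.2) and 18.5-fold (8.23 to 51.5) are loosely bounded because mock had few reads. Those of PSPC1/PTK6, 5.14-fold (2.14 to 15.0), and PSPC1-Y523F/PTK6, 2.83-fold (1.09 to 8.65), were also above mock beyond counting error. In these comparisons the mean of CCL2 after normalization was under 1 FPKM. CCL20 (ENSG00000115009, chromosome 2, 227813842 to 227817564), a ligand of CCR6 on lymphocytes and dendritic cells, had no read in 4 SK-hep1 libraries and 2 reads in PSPC1-Y523F/PTK6, where 3 reads would be 0.165 to 0.198 FPKM, so a difference was not detectable at this depth.

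**Figure D1:**
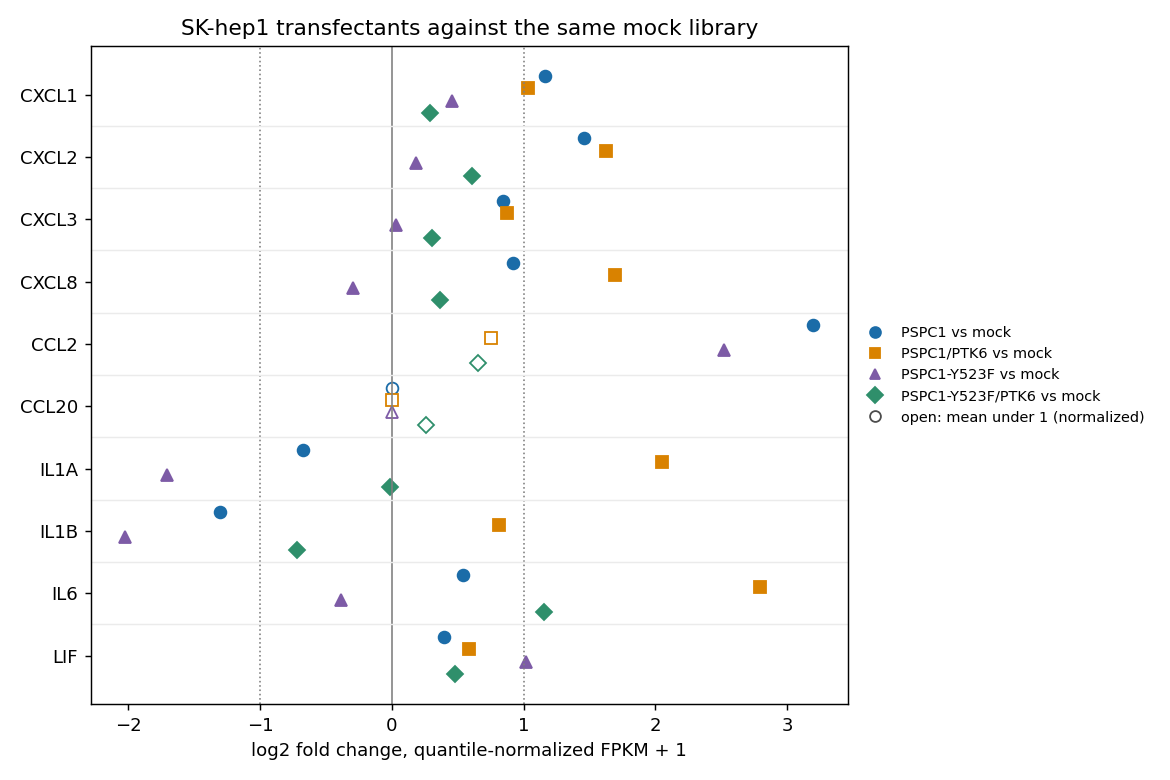
Log2 fold change of the 10 genes in the 4 SK-hep1 transfectants against mock, on quantile-normalized FPKM + 1; dotted lines mark 2-fold and open symbols a mean under 1 FPKM after normalization. Squares (PSPC1/PTK6) lie farthest right for IL6, IL1A and CXCL8, circles and triangles (PSPC1 and PSPC1-Y523F) for CCL2.

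Counted together, the PSPC1/PTK6 library held the most rises. With PSPC1, 9 of the 10 genes had a mean level of 1 FPKM or more over both libraries after quantile normalization, as counted throughout, of which 3 were at least 2-fold higher than mock (CXCL1, CXCL2 and CCL2) and 1 lower (IL1B), against 3.38% of all 12410 genes higher and 2.19% lower. Their median log2 fold change was 0.84, beside -0.03 over all genes. With PSPC1/PTK6, 5 of 8 were higher (CXCL1, CXCL2, CXCL8, IL1A and IL6) and none lower, against 5.09% and 3.32% of 12436 genes, with a median of 1.33 beside -0.04. CXCL1 was near the limit there, and scaling the reads by the TMM method put it at 0.96. With PSPC1-Y523F, 2 of 9 were higher (CCL2 and LIF) and 2 lower (IL1A and IL1B), against 2.83% and 2.46% of 12382 genes, and their median was 0.03 beside -0.01. LIF was near the limit, at 0.95 with GC content and length taken out and 0.92 with 5 FPKM added. With PSPC1-Y523F/PTK6, 1 of 8 was higher (IL6) and none lower, against 3.44% and 1.59% of 12412 genes, with a median of 0.34 beside -0.04. These 4 comparisons share the mock library. Some genes with few reads passed the level of 1 FPKM only through the library where they were high, such as CCL2, and IL1A with PSPC1-Y523F. Such a gene had to differ, so the counts describe the genes that passed and not all 10.

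Across the 5 SK-hep1 libraries, 9 of the genes had a mean level of 1 FPKM or more, and 6 of them had their highest level in PSPC1/PTK6: CXCL2, CXCL3, CXCL8, IL1A, IL1B and IL6. Of all 12449 genes with such a mean, 25% were highest in that library. CXCL1 and CCL2 were highest with PSPC1 and LIF with PSPC1-Y523F. Of all genes, 14.6% were highest with PSPC1 and 24.8% with PSPC1-Y523F. The lowest library was mock for 5 genes (CXCL1, CXCL2, CXCL3, CCL2 and LIF) and PSPC1-Y523F for 4 (CXCL8, IL1A, IL1B and IL6), and these were the lowest libraries of 16.2% and 22.9% of all genes.

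To ask what PTK6 adds on either form of PSPC1, PSPC1/PTK6 was set against PSPC1, and PSPC1-Y523F/PTK6 against PSPC1-Y523F. These comparisons share no library. IL1A, IL1B and IL6 were at least 2-fold higher with PTK6 in both, and CCL2 at least 2-fold lower in both. On wild-type PSPC1 the log2 fold change was 2.72 for IL1A, 2.12 for IL1B, 2.25 for IL6 and -2.45 for CCL2. On PSPC1-Y523F it was 1.69 for IL1A, 1.31 for IL1B, 1.54 for IL6 and -1.87 for CCL2. On the mutant IL1A passed the level of 1 FPKM only through the PTK6 library, with 3.42 FPKM against 0.365 FPKM after normalization. Its call there was thus nearly set by the filter and adds little to the counts. With 5 FPKM added in place of 1, IL6 alone of the 4 stayed past 2-fold on the mutant, with IL1A at 0.65, IL1B at 0.69 and CCL2 at -0.98. Each of the 4 was closer to 0 on the mutant, a difference that was not tested. As ratios of deposited FPKM, CCL2 was 6.56-fold lower with PTK6 on the wild type (4.54 to 9.76) and 6.54-fold lower on the mutant (3.99 to 11.3).

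The other 5 genes stayed under 2-fold in both comparisons. CXCL8 had log2 values of 0.77 and 0.66, CXCL2 of 0.17 and 0.42, CXCL3 of 0.03 and 0.27, CXCL1 of -0.12 and -0.17, and LIF of 0.19 and -0.54. CXCL8 was the one near the limit, with a ratio of 2.21-fold on wild-type PSPC1 (1.87 to 2.62). In all, 8 of the 9 genes with a mean level of 1 FPKM or more had the same sign in both, as did 60.5% of all 11931 genes kept in both. Over all genes, 1.02% were at least 2-fold higher in both comparisons and 0.36% lower in both. In the single comparisons, the 3 higher and 1 lower of 9 compare with 3.09% higher and 1.87% lower of 12391 genes on wild-type PSPC1, where the genes' median was 0.19 beside -0.02. They compare with 3.78% and 2.2% of 12398 genes on the mutant, where the median was 0.42 beside -0.03. The PSPC1 level moved with PTK6 in both, being 3.77-fold higher (3.24 to 4.40) on the wild type and 31.1-fold higher (24.5 to 39.9) on the mutant, and its part in the result was not tested.

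**Figure D2:**
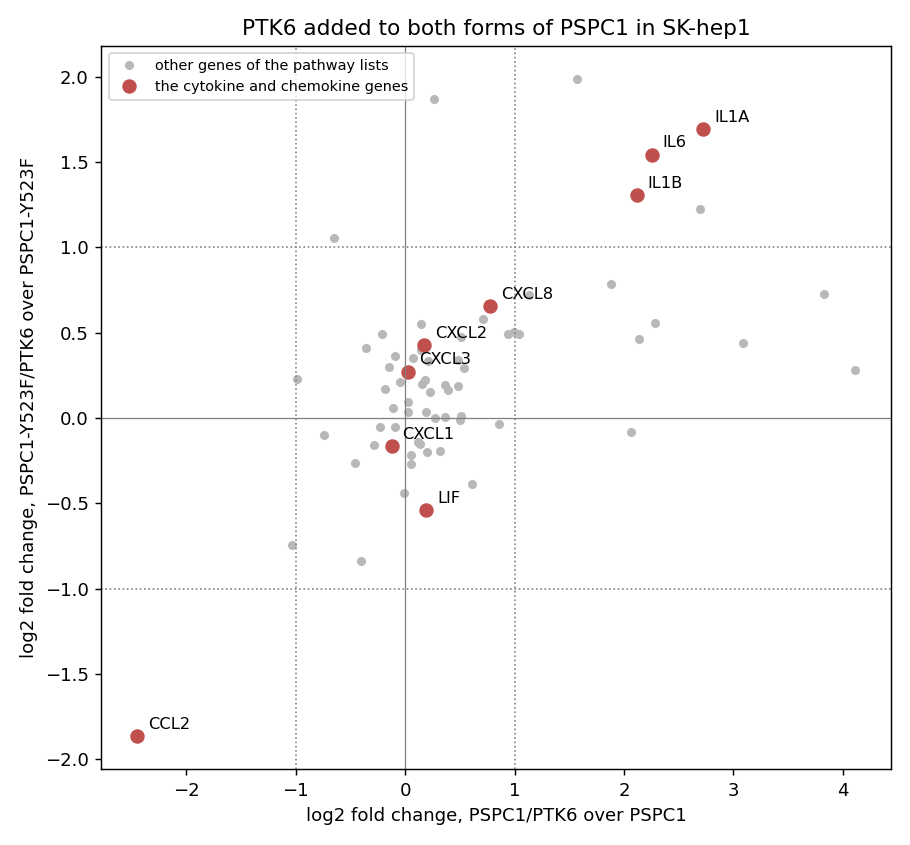
Log2 fold change with PTK6 on wild-type PSPC1 (horizontal) and on PSPC1-Y523F (vertical), for 9 of the 10 genes in red and the other genes of the pathway lists in grey. Dotted lines mark 2-fold; IL1A, IL1B and IL6 lie past it at the upper right and CCL2 at the lower left.

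Genes of the pathway's own machinery mostly stayed under 2-fold in SK-hep1 cells. RELA, the main activating subunit, had 97.6 FPKM in mock and 95.5 to 121 FPKM in the transfectants, and NFKB1 had 42.0 FPKM in mock and 32.5 to 39.1 FPKM in the transfectants. Of the 5 subunit genes 4 had a mean level of 1 FPKM or more, and none was past 2-fold in any of the 6 SK-hep1 comparisons. Of 10 kinases and adaptors, such as IKBKB and TRAF6, 1 was past 2-fold in these comparisons, MYD88 in PSPC1-Y523F/PTK6 against mock, which is named here after its value was seen.

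Feedback inhibitors are themselves NF-kB targets and are often read as a sign of its activity. NFKBIA, which encodes IkB-alpha, had 135 FPKM in mock, 243 with PSPC1, 428 with PSPC1/PTK6, 132 with PSPC1-Y523F and 127 with PSPC1-Y523F/PTK6. Its order followed that of CXCL2 in the wild-type libraries, with log2 fold changes against mock of 0.83 and 1.69, and -0.03 and -0.07 with the mutant. TNFAIP3, the ubiquitin-editing enzyme A20, had 14.9 FPKM in mock, 4.50 with PSPC1, 24.0 with PSPC1/PTK6, 5.90 with PSPC1-Y523F and 11.1 with PSPC1-Y523F/PTK6. Like IL1B, it was past 2-fold lower with PSPC1, at -1.40, and with PSPC1-Y523F, at -1.04. It was 1.88 higher on the log2 scale with PTK6 on wild-type PSPC1. Of the 8 inhibitor and feedback genes, 1 was higher (NFKBIZ) and 1 lower (TNFAIP3) with PSPC1 against mock. With PSPC1/PTK6 2 were higher (NFKBIA and NFKBIZ), with PSPC1-Y523F 1 was lower (TNFAIP3) and with PSPC1-Y523F/PTK6 none changed. With PTK6 added, 2 were higher on wild-type PSPC1 (TNFAIP3 and TNIP1) and none on the mutant.

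Part of the other known targets were also past 2-fold higher in PSPC1/PTK6 than in mock. CCL5, a chemokine of T cells and monocytes, had 310 FPKM in mock and 4347 FPKM in PSPC1/PTK6, a log2 fold change of 3.87, on 7462 and 115112 reads. SOD2, the mitochondrial superoxide dismutase, went from 34.6 to 403 FPKM, at 3.43, and ICAM1, an adhesion molecule for leukocytes, from 17.2 to 205 FPKM, at 3.41. Of 12 other secreted targets 6 could be read, of which 3 were at least 2-fold higher in that library (CCL5, CSF1 and CSF3) and none lower, with a median of 1.58. Of 8 cell-bound targets 6 could be read, with 3 higher (ICAM1, BIRC3 and SOD2), none lower and a median of 1.61. With PSPC1 alone none of either list was higher, 2 secreted targets were lower (CSF3 at -1.49, and IL32) and 1 cell-bound target was lower (TRAF1). With PSPC1-Y523F none was higher and IL32, at -1.66, was lower, while with PSPC1-Y523F/PTK6 IL11 was higher at 1.52 and ICAM1 at 1.35.

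AP-1 and C/EBP factors act on CXCL8 and IL6 beside NF-kB. Of 10 such factors, 3 were higher in PSPC1/PTK6 than in mock (JUNB, CEBPB and CEBPD) and 1 lower (FOS). The median of that list was 0.09, beside -0.04 over all genes. CEBPD was higher with PSPC1 as well, at a log2 value of 2.17, from 16.0 to 77.6 FPKM. With PSPC1-Y523F ATF3 was lower at -1.18, and with PSPC1-Y523F/PTK6 CEBPD was higher and FOS, at -1.16, and ATF3 were lower. Of 4 regulators of cytokine mRNA decay, ZFP36 and ZC3H12A were higher with PSPC1 and with PSPC1/PTK6, none with PSPC1-Y523F, and ZC3H12A alone with PSPC1-Y523F/PTK6. Of 4 genes of IL6 and LIF signalling (JAK1, JAK2, STAT3 and SOCS3), none passed 2-fold in any SK-hep1 comparison. Of 8 inducing ligands and their receptors, TNFRSF1B alone was higher, in PSPC1/PTK6 only, against mock and against PSPC1, and TNF was at most 0.138 FPKM in SK-hep1.

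Of 11 receptors and receptor components of these messengers 5 could be read in SK-hep1. IL6R was higher with PSPC1 and with PSPC1/PTK6, IL6ST was higher with PTK6 on wild-type PSPC1, and LIFR was lower with PSPC1-Y523F/PTK6. CXCR1 and CCR6 had no read in any SK-hep1 or Mahlavu library and CXCR2 at most 0.049 FPKM, so receptors of the neutrophil chemokines were at or near 0 in the libraries where the chemokines were expressed.

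In Mahlavu cells the neutrophil chemokines CXCL1, CXCL2 and CXCL8 were lowest in the library labelled PSPC1-CT131 and highest in the one labelled Mut-NLS-CT131. CXCL1 had 5.75 FPKM in mock, 2.30 in PSPC1-CT131 and 12.4 in Mut-NLS-CT131. CXCL2 had 5.37, 2.31 and 9.24 FPKM in the same order. CXCL8 had 4.10, 0.303 and 7.64 FPKM, on 93, 6 and 146 reads. These 3 genes kept the same order of the libraries, with PSPC1-CT131 at the bottom. CXCL3 had 1.62, 0.782 and 0.761 FPKM and did not share it, but after quantile normalization its mean was under 1 FPKM. Against mock, the log2 fold change of CXCL8 in PSPC1-CT131 was -1.55, the only member past 2-fold there, and those of CXCL1 and CXCL2 were -0.64 and -0.55. In Mut-NLS-CT131 CXCL1 was higher than mock at 1.16, with CXCL2 at 0.84 and CXCL8 at 0.92.

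IL1B and LIF were highest in Mut-NLS-CT131 as well. IL1B had 19.1 FPKM in mock, 16.9 in PSPC1-CT131 and 55.1 in Mut-NLS-CT131, which was 1.69 above mock on the log2 scale. LIF had 6.01, 7.37 and 15.4 FPKM, at 0.66 and 1.42 against mock. IL1A had 5, 0 and 4 reads, and CCL20 had 5, 0 and 1, so neither gene could be compared at this depth.

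CCL2 and IL6 were instead highest in mock and lowest in Mut-NLS-CT131. CCL2 had 27.5 FPKM in mock, 11.7 in PSPC1-CT131 and 5.81 in Mut-NLS-CT131, a log2 fold change against mock of -0.92 and -2.08. IL6 had 11.9, 8.64 and 5.31 FPKM, at -0.06 and -0.90 against mock. As ratios of deposited FPKM CCL2 was 2.35-fold lower than mock in PSPC1-CT131 (1.99 to 2.78) and IL6 2.24-fold lower in Mut-NLS-CT131 (1.75 to 2.90).

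Of the 10 genes 7 had a mean level of 1 FPKM or more in each Mahlavu comparison. In PSPC1-CT131 against mock none was at least 2-fold higher and 1 was lower (CXCL8), against 3.17% and 3.16% of 12415 genes, with a median of -0.55 beside 0.01. With FPKM as deposited in place of quantile-normalized values 3 were lower. With GC content and length taken out none was lower, CXCL8 then standing at -0.80. The share of all genes with these settings is not given here. CXCL8 passed the level of 1 FPKM only through mock, with 2.72 FPKM against 0.274 FPKM after normalization. Its call was thus nearly set by the filter. In Mut-NLS-CT131 against mock 3 were higher (CXCL1, IL1B and LIF) and 1 lower (CCL2), against 3.16% and 3.26% of 12425 genes, with a median of 0.92 beside 0.00334. In Mut-NLS-CT131 CXCL1 fell under 2-fold with FPKM as deposited, at 0.99. With 5 FPKM added CXCL1 was at 0.75 and LIF at 0.95, both under 2-fold. The comparisons against mock share the Mahlavu mock library. Set against each other, PSPC1-CT131 had 1 gene higher than Mut-NLS-CT131 (CCL2 at 1.16) and 4 lower (CXCL1 at -1.80, CXCL2 at -1.39, CXCL8 at -2.47 and IL1B at -1.55), against 4.23% higher and 4.59% lower of 12453 genes, with a median of -1.39 beside 0.01. The value of CCL2 fell under 2-fold with FPKM as deposited, at 0.90, and with FPKM scaled to the same sum, at 0.92. With 5 FPKM added it fell under 2-fold too, at 0.78. CXCL8 passed the level of 1 FPKM here only through Mut-NLS-CT131, with 6.06 FPKM against 0.274 FPKM after normalization.

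GC content moved with the differences of the PSPC1-CT131 library, with a Spearman's rho of 0.57 between log2 fold change and GC content over 12402 genes against mock, and genes are not independent replicates. The longest CXCL8 transcript has 33.4% GC, at percentile 0.388 of the genes, and the part of this in its low level was not tested beyond the value of -0.80 given above. CXCL1 and CXCL2, at percentiles 37.6 and 39.1, were nearer the middle. PTK6 was also higher in both labelled libraries than in mock, with 8.95 FPKM in mock and 17.2 and 17.3 FPKM, and its part was not tested.

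**Figure D3:**
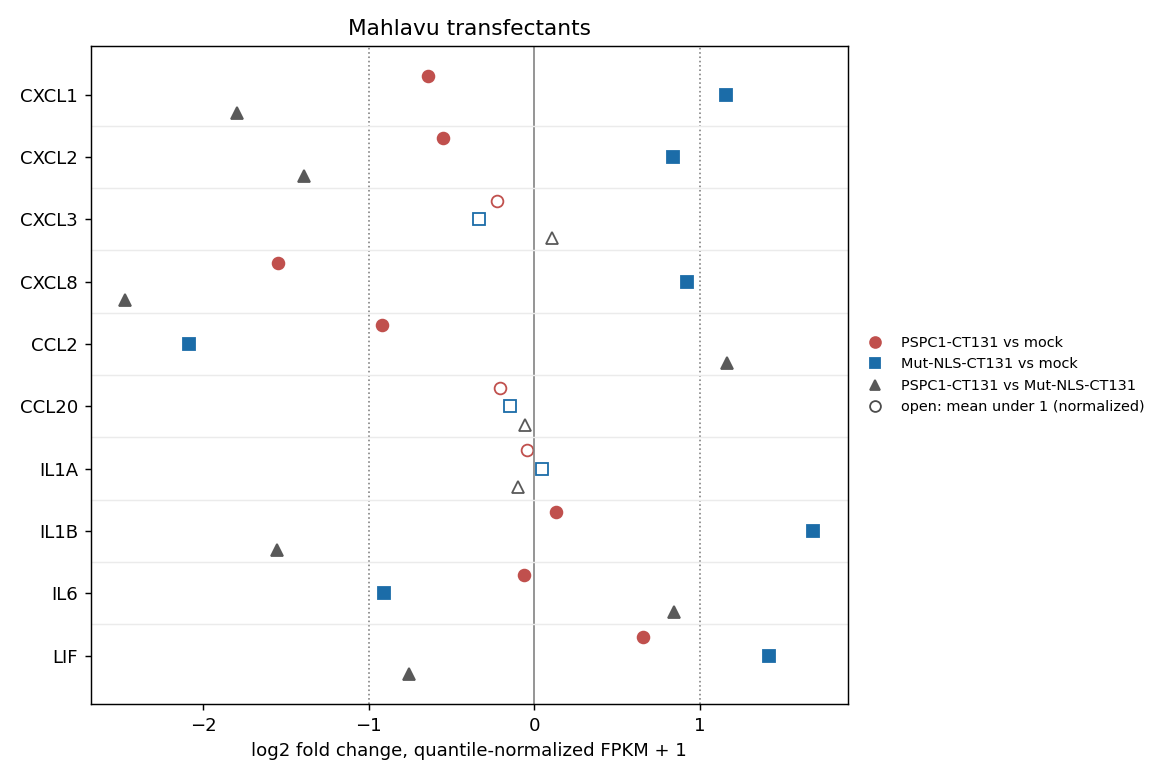
Log2 fold change of the 10 genes in the Mahlavu libraries labelled PSPC1-CT131 and Mut-NLS-CT131 against mock and against each other, on quantile-normalized FPKM + 1; dotted lines mark 2-fold and open symbols a mean under 1 FPKM after normalization. For CXCL1, CXCL2 and CXCL8 the circles lie left of 0 and the squares right of it, while for CCL2 and IL6 the squares lie left.

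Among the other genes of the pathway in Mahlavu, NFKBIA had 75.0 FPKM in mock, 77.9 in PSPC1-CT131 and 34.0 in Mut-NLS-CT131, at log2 values of 0.13 and -1.18. It was thus low in the library where CXCL1 and IL1B were high, the reverse of the SK-hep1 libraries with PSPC1/PTK6. TNFAIP3 had 13.1, 10.7 and 12.3 FPKM, RELA had 84.7, 123 and 90.1 FPKM and NFKB1 had 40.8, 34.3 and 28.7 FPKM, all under 2-fold. SOD2 had 298 FPKM in mock and 851 FPKM in Mut-NLS-CT131, a log2 fold change of 1.65. CCL5 was higher than mock in both libraries, at 2.24 and 2.47, as was TNFRSF1B, a receptor of TNF, at 1.00 and 1.56. Of the factors, ATF3 was higher in Mut-NLS-CT131, as were ZFP36L1 and ZC3H12A of the mRNA decay list. No other gene of the 12 secreted targets passed 2-fold against mock. None of the 5 subunits, 10 kinases and adaptors, 11 receptors or 4 genes of IL6 and LIF signalling did. Of the 8 inhibitor and feedback genes only NFKBIA did, in Mut-NLS-CT131. Between the labelled libraries, 2 of the 8 were higher in PSPC1-CT131 (NFKBIA and BCL3) and 1 lower (NFKBIZ), against 4.23% and 4.59% of all genes. Of 9 readable AP-1 and C/EBP factors, 4 were higher in PSPC1-CT131 (FOSL1, JUN, JUNB and JUND) and none lower. Of 10 kinases and adaptors 1 was higher (MAP3K14), and of 5 readable secreted targets 2 were lower (CXCL5 and IL32). Of 7 readable cell-bound targets 1 was higher (TRAF1) and 1 lower (SOD2), and no gene of the other lists passed 2-fold.

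In Huh-7 cells 4 of the 10 genes had a mean level of 1 FPKM or more, CCL20, CXCL1, CXCL8 and CXCL2, with CCL20 the highest. CCL20 had 358 FPKM in untreated cells (95% Wilson interval 348 to 369) and 204 FPKM with HGF (196 to 213), from 4388 and 2331 reads. CXCL1 had 11.2 and 6.43 FPKM, CXCL8 had 5.86 and 6.62 FPKM and CXCL2 had 1.63 and 2.25 FPKM. CCL20 and CXCL1 were lower with HGF, by log2 values of -0.78 and -0.71, and CXCL2 and CXCL8 stood at 0.28 and 0.15. The ratios of CCL20, 1.75-fold lower (1.67 to 1.84), and CXCL1, 1.74-fold lower (1.32 to 2.30), exceeded counting error, whereas those of CXCL2 (0.752 to 2.57) and CXCL8 (0.846 to 1.51) held 1. None of the 4 genes averaging 1 FPKM or more was past 2-fold, against 0.428% of 14262 genes higher and 0.393% lower, with a median of -0.28 beside -0.00164.

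The remaining 6 genes were under 1 FPKM in both Huh-7 libraries. LIF had 0.857 FPKM without and 0.978 FPKM with HGF and CXCL3 had 0.532 and 0.444 FPKM. IL1A had 2 reads in each library, IL1B had 1 and 5, IL6 had 1 and 0, and CCL2 had 2 and 0. RELA at 54.8 and 57.6 FPKM and NFKBIA at 47.9 and 49.9 FPKM were nearly level, so the pathway's own genes were expressed while IL6, IL1B and CCL2 were at the floor. NFKB1 had 23.8 and 19.8 FPKM and TNFAIP3 had 24.6 and 28.3 FPKM. No gene of the 10 pathway lists passed 2-fold with HGF.

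The cell lines thus differed in which messengers they expressed. CCL20 was the highest of the 10 in Huh-7 and at or near 0 in SK-hep1 and Mahlavu, whereas IL6, IL1B and LIF were under 1 FPKM in Huh-7 and above it in every other library. IL1A was above 1 FPKM in 4 of 5 SK-hep1 libraries and in none of the others. Among mock libraries, CXCL1 was the highest of the set in SK-hep1 at 34.0 FPKM and CCL2 in Mahlavu at 27.5 FPKM. In bulk RNA fewer cells that express a gene and less RNA per cell cannot be told apart.

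Over the 8 SK-hep1 and Mahlavu libraries the genes did not move as 1 unit. The mean of the 9 readable genes, centred within each line on the log2 scale, was -0.48 in SK-hep1 mock, 0.24 with PSPC1, 0.88 with PSPC1/PTK6, -0.50 with PSPC1-Y523F and -0.14 with PSPC1-Y523F/PTK6. In Mahlavu it was 0.02 in mock, -0.34 in PSPC1-CT131 and 0.32 in Mut-NLS-CT131. CXCL2 and CXCL8 lay closest to this mean, with Pearson's r of 0.93 and 0.89, whereas LIF had 0.17 and CCL2 had -0.07. Each of the 9 genes is part of the mean, which raises its r by construction, so these values are not comparable with those of other genes. Of 12893 other genes, the 5 most like the mean were TRAPPC11 at r = 0.99, CFL2 at 0.99, CD40 at 0.98, NOP10 at 0.98 and DHTKD1 at 0.98. CD40, a receptor that signals to NF-kB, had 19.5 FPKM in SK-hep1 mock, 27.3 with PSPC1 and 42.9 with PSPC1/PTK6, against 17.5 and 19.7 FPKM with the mutant. With 8 libraries of 2 lines and so many genes ranked, such values are a description only.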

How the data were processed

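Gene expression came from RNA-Seq of 10 libraries with 1 for each condition, grouped by their labels. The authors deposited raw read counts per gene for SK-hep1 and Mahlavu and FPKM for all 10 libraries. The submitters' processing notes name TopHat2 2.0, HTSeq 0.6.1, edgeR and GRCh38.p12 and the paper's methods hg18; 97.5% of the 58039 genes shared with GENCODE 29 lie at its GRCh38 positions. The labels describe poly-T bead selection and the paper rRNA depletion. No source used here gives stranded counting, so antisense reads cannot be told apart.

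Deposited FPKM were not quantile normalized, so this step of the paper's methods was run on SK-hep1 and Mahlavu together (8 libraries) and on Huh-7 (2 libraries). Reads behind the Huh-7 FPKM were recovered from 1 length per gene, and 100% of values with a length came out whole within 0.01 reads. Log2 fold changes used normalized FPKM + 1, genes averaging 1 FPKM or more over the libraries compared, and a threshold of 2-fold. Intervals are 95% Wilson (levels) and exact binomial (ratios), and reads carry no molecular identifiers.

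All 10 genes are named in every library. Of the pathway lists, RELA, NFKB1, NFKBIA and TNFAIP3 are named always, and at most the 3 largest changes past 2-fold per comparison against mock or untreated. Others stand only as names beside a list's count, chosen after their values were seen. The 10 genes and all lists were chosen with earlier results of these data known. Alternatives were a pseudocount of 0.1 or 5, deposited FPKM, FPKM scaled to the same sum, no filter, a mean of at least 5 FPKM, normalization within each line, TMM-scaled reads and, added after seeing the data, GC content and length taken out by a quadratic fit. The calculation was tested on simulated data, with Python 3.11.15, numpy 2.4.6, pandas 2.3.3, scipy 1.17.1, matplotlib 3.10.9, R 4.3.3 and edgeR 4.0.16.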

Additional observations from a re-analysis of the deposited data

How the results depend on the processing

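Of the single values past 2-fold in the main analysis, all 32 stayed past it with no filter and with quantile normalization within each cell line. TMM-scaled reads lost 1 and gained 1, deposited FPKM lost 2 and gained 6, FPKM scaled to the same sum lost 1 and gained 8, and taking out GC content and length lost 3 and gained 3. A pseudocount of 0.1 gained 5. A pseudocount of 5 kept 19 and lost 13, as it weighs on low values by construction, and no value changed sign among those past 2-fold. With it, the number of the genes at least 2-fold changed became 2 in PSPC1-Y523F against mock, 0 in PSPC1-Y523F/PTK6 against mock, 1 for PTK6 on PSPC1-Y523F, 0 in PSPC1-CT131 against mock, 2 in Mut-NLS-CT131 against mock and 3 between the labelled Mahlavu libraries. With a mean of at least 5 FPKM, which tests fewer genes, it became 2 in PSPC1-Y523F against mock, 1 for PTK6 on PSPC1-Y523F, 0 in PSPC1-CT131 against mock and 3 between the labelled Mahlavu libraries. In PSPC1-CT131 against mock it was 3 with deposited FPKM, 4 with FPKM scaled to the same sum and 0 with GC content and length taken out; the cause was not tested. The share of all genes past 2-fold moved with the setting as well. In PSPC1 against mock it was 5.57% in the main analysis, 2.10% with a pseudocount of 5 and 4.35% with a mean of at least 5 FPKM. In PSPC1/PTK6 against mock it was 8.41%, 3.63% and 7.37%. For the comparisons counted above this share is not given with these settings, so those counts alone cannot be set against all genes. No paired analysis was possible because each condition has 1 library. Depth limits CCL20 and IL1A outside the line that expressed them, and CCL2 in SK-hep1 mock, where it had 6 reads.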
